A study of Mus musculus with 5 samples.

Results

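The cells described here are the high-glucagon alpha cells of the mouse islet. They were taken from single-cell RNA sequencing by the share of a cell's UMIs (unique molecular identifiers, 1 per captured transcript) that came from Gcg, the glucagon gene. A cell was a member when Gcg gave at least 30% of its UMIs, Ins1 and Ins2 together under 10%, Sst under 1% and Ppy under 2%. Among 22758 kept cells 4109 met these limits, with 660, 708 and 675 in chow mice 1, 2 and 3 and 1150 and 916 in HC mice 1 and 2. Hand-picked islets came from 5 mice that were NOD.SCID (NOD.Cg-Prkdcscid/J), a background without mature lymphocytes of the T and B lineages, and each mouse gave 1 droplet library. All 5 mice carried this genotype and differed in diet: 3 were fed chow and 2 were fed 20% HC, an abbreviation the labels leave unexplained. Ages in weeks were 8, 10 and 10 for chow mice 1 to 3, and 7 and 9 for the HC mice. The title of HC mouse 2 calls it chow-fed while its diet label says 20% HC, and it was kept as HC. The comparisons ask which genes differ by diet in these cells, and where the cells differ from alpha cells with less glucagon RNA and from beta cells.

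Alpha cells make glucagon, the hormone that raises blood glucose by driving glycogen breakdown and glucose synthesis in the liver. Glucagon is cut from a larger precursor, proglucagon, by the prohormone convertase PC2 (Pcsk2), which acts with the chaperone 7B2 (Scg5), and is stored with granins in dense-core granules. Amino acids are strong stimuli of alpha cells, and the cell's identity is held by a set of transcription factors.

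The gene that defined the cells lies on the minus strand of chromosome 2 (build GRCm38). Its coding sequence, from the GENCODE M21 annotation, spans chr2:62474978-62480556 over 5 coding exons of 6 exons and has 180 codons before the stop. Codons 50 to 149, within chr2:62475805-62478661, are shown without their introns because proglucagon is cut at pairs of basic residues. The capitals mark each pair of neighbouring codons for lysine or arginine, and 6 of the 7 pairs of the whole coding sequence lie here. The marks follow the codons alone and do not show which pairs are cut. Single basic codons are not marked.
Gcg coding stretch: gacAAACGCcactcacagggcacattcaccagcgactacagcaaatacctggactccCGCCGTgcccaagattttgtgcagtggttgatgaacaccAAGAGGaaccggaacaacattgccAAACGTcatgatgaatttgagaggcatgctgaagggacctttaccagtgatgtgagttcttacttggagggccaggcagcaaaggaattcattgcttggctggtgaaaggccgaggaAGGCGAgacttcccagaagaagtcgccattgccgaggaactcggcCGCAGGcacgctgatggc
The bases before the start of Gcg are shown because the cells were chosen by the output of this gene. They lie at chr2:62483654-62483903 on the minus strand and come from RefSeq (GRCm38.p6). Capitals mark the 2 matches to TATAAA, searched on both strands, a motif that 12.4% of the 32851 windows of that table hold.
Gcg upstream: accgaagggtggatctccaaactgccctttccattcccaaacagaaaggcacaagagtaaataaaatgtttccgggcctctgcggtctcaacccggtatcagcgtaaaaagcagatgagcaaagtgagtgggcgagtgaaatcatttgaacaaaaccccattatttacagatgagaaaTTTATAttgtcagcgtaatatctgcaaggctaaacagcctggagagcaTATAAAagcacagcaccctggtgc

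The libraries held 28722244 to 39624978 UMIs in 4452 to 6087 barcodes. Median UMIs per member cell were 5043.5, 4037 and 3717 with chow and 3642.5 and 3901 with HC. Without the 5 hormone genes Gcg, Ins1, Ins2, Sst and Ppy the medians were 2570, 2112.5 and 1945 with chow and 1910.5 and 2167 with HC, with chow mouse 1 the deepest on both measures. The median mitochondrial share of a member's UMIs was 2.27%, 1.95% and 2.33% with chow and 3.37% and 2.59% with HC, higher with HC in each case (two-sided exact permutation p = 0.1, the smallest that 5 mice allow). Library names began with FUN (chow mouse 1 and HC mouse 1) or SKY (the other libraries), a prefix whose meaning is not given in the sources used here. Within each prefix the HC mouse was the younger, at 7 weeks against 8 in FUN and 9 against 10 in SKY. Within a prefix diet and age thus cannot be told apart. Of 26394 different barcodes 80 occurred in 2 or more libraries, and of 4104 different member barcodes 5 did.

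Gcg filled a large part of each member's RNA, and because it chose the cells its values are given without a test. The median share was 45.98%, 42.5% and 45.7% with chow and 42.3% and 42.2% with HC, and the highest single cell reached 69.9%. The counts of cells ran through the 30% limit without a gap. Cells from 30% to under 32% had median UMIs outside the hormone genes of 2228, 1812 and 1693 with chow and 1704 and 2029 with HC. Cells from 28% to under 30%, just outside, had 2113.5, 1856 and 1643 with chow and 1809 and 1876 with HC. The limits on other hormones removed 250 of 4359 cells (5.74%) with enough Gcg, with 148 over the limit for Sst, 95 for Ppy and 8 for insulin. Insulin RNA still made up a median share of 0.459%, 0.858% and 0.395% with chow and 0.270% and 0.327% with HC. In the other direction, 78.7% to 93.9% of beta cells held at least 1 Gcg UMI, at a median share of 0.0181% to 0.0345%.

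**Figure D1:**
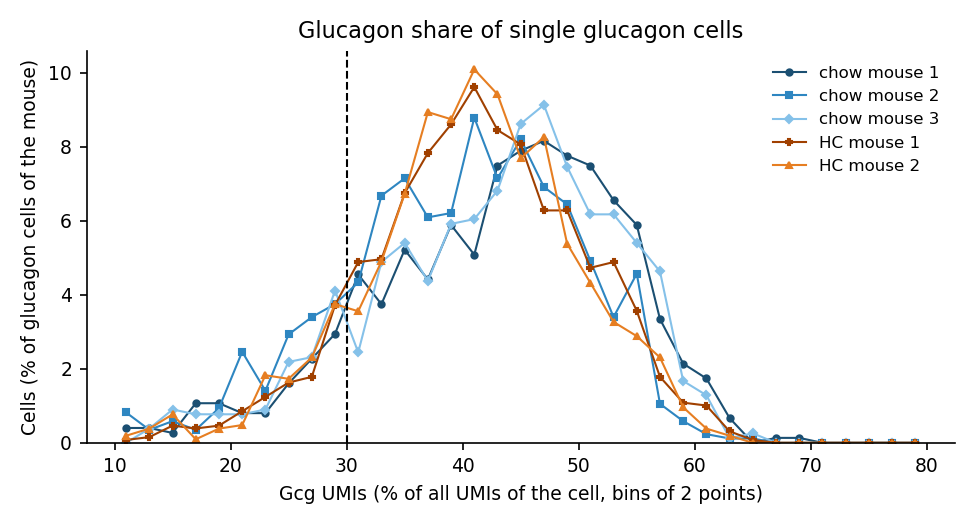
Cells by Gcg share (horizontal axis, % of all UMIs of the cell, bins of 2 points) as a percent of the glucagon cells of the mouse (vertical axis), with 1 line per mouse and a dashed line at 30%. The lines cross the limit without a gap, and the fullest bin starts at 40% in both HC mice and chow mouse 2 and at 46% in chow mice 1 and 3.

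High-glucagon alpha cells made up a larger part of the kept cells in both HC mice than in any chow mouse. They were 18.1%, 13.8% and 14.2% with chow and 23.9% and 20.8% with HC, with no overlap between diets. The difference was 6.94 percentage points, with 5.80 points within the FUN libraries and 6.73 within the SKY libraries. Its two-sided exact permutation p was 0.1, the smallest that 5 mice allow, so it could not pass 0.05. Beta cells, as defined below, were 50.8%, 53.5% and 55.4% of kept cells with chow and 45.1% and 42.3% with HC. A share also moves with those of other cells, and their part was not tested. Among all cells with at least 10% Gcg and the same limits on other hormones, members were 88.4%, 83.00% and 86.9% with chow and 89.2% and 88.1% with HC. The difference between the means of 86.1% ± 2.76 (SD, n = 3) and 88.6% ± 0.806 (SD, n = 2) did not pass (two-sided exact permutation p = 0.4).

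Markers that the rule did not read were those of alpha cells. Levels are in CPM, here counts per 1000000 UMIs outside the 5 hormone genes, summed over the cells of a class in a mouse. Irx1, an Iroquois factor gene, was at 277, 178 and 222 with chow and 264 and 204 with HC in members. In beta cells of the same mice it was at 0 to 1.09. Irx2, another gene of that family, ran from 153 to 227 in members and from 0.619 to 2.02 in beta cells. Both genes separated the classes in all 5 mice without overlap. A UMI of Irx1 was seen in 32.6% to 50.6% of members of a mouse and in at most 0.322% of beta cells. After thinning every cell to 1000 non-hormone UMIs the shares for Irx1 were 15.3% to 24.9% and at most 0.107%. Beta cells were the deeper class in every mouse, with median UMIs outside the hormone genes of 3240, 2576 and 2301 with chow and 2459 and 3089.5 with HC.

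Beta cells were taken as cells with at least 30% insulin UMIs and under 1% of each other hormone, 11264 in all. Against them 3716 of 12568 tested genes (29.6%) were higher in members and 3741 (29.8%) lower, together 59.3% of all tested, by edgeR's quasi-likelihood test on the sums per mouse with the mouse as a block (Benjamini-Hochberg adjusted p under 0.05). A list's count below has to be read against these shares. Among 20 tested alpha cell transcription factors 14 were higher and 4 lower. Etv1, an ETS factor gene, was at 454 to 524 CPM in members against 6.84 to 13.4 in beta cells, and Pou3f4, a POU factor gene, at 26.9 to 36.2 against at most 0.311. Isl1, an islet factor gene, was higher (log2 1.15 ± 0.0754 SE, adjusted p = 1.02e-11). The pan-endocrine factor genes Pax6 (-0.46 ± 0.0620, adjusted p = 5.98e-09) and Neurod1 (-0.15 ± 0.0581, adjusted p = 0.0232) were lower. All 13 tested beta cell markers were lower, among them the factor gene Mafa, at 1.90 to 17.9 in members and 841 to 1482 in beta cells, and Iapp, the amylin gene, at 642 to 925 and 83987 to 95376. Of 18 tested alpha markers 13 were higher and 4 lower, and the lower ones were Loxl2, Fxyd3, Dpp4 and Tm4sf4.

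Beyond transcription factors, the genes that stood furthest apart included Higd1a, a mitochondrial protein gene, at 292 to 454 CPM in members and 1.10 to 2.95 in beta cells (log2 7.41 ± 0.104, adjusted p = 1.65e-47, edgeR). Pappa2, which encodes a protease of IGF-binding proteins, was at 379 to 578 and 2.46 to 8.14, and Ctxn2 at 129 to 179 and 0.774 to 2.33. On the other side were Ucn3, the urocortin 3 gene of mature beta cells, at 1.75 to 4.33 and 527 to 601, and Slc2a2, the glucose transporter GLUT2 gene, at 1.90 to 7.03 and 764 to 931. The classes did not overlap for any of these 5 genes.

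Secretory genes went in both directions. Pcsk2, whose product releases glucagon, was at 4555 to 5281 CPM in members and 2155 to 2424 in beta cells (log2 1.16 ± 0.0549, adjusted p = 1.5e-26, edgeR), and its chaperone gene Scg5 was higher too (0.63 ± 0.0571, adjusted p = 1.25e-14). Pcsk1, which encodes the convertase PC1/3 that yields GLP-1 from the same precursor, was at 2.71, 2.91 and 0 with chow and 2.67 and 3.16 with HC in members, against 302 to 404 in beta cells. Members of all mice were thus far below beta cells for Pcsk1. Pam, which amidates peptide ends, was at 886 to 1102 against 277 to 333. Among granin genes Vgf was higher in members (3.83 ± 0.112, adjusted p = 9.23e-37), while Chgb (-0.70 ± 0.0630, adjusted p = 5.33e-12), Scg2 (-1.75 ± 0.0583, adjusted p = 6.74e-34) and Scg3 (-0.56 ± 0.0569, adjusted p = 7.73e-13) were lower. Of 21 tested processing and granule genes 10 were higher and 9 lower, with a median log2 of -0.04 against 0.01 for all tested genes.

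Receptor genes also went both ways, with 12 of 23 tested higher and 9 lower. Avpr1b, a vasopressin receptor gene, was at 33.2 to 51.1 CPM in members and at most 0.244 in beta cells. The somatostatin receptor gene Sstr2 was at 18.4 to 39.98 and at most 0.466. The oxytocin receptor gene Oxtr was at 115 to 175 against 0.774 to 2.35 (log2 6.69 ± 0.137, adjusted p = 4.8e-40, edgeR). The genes of the incretin receptors and of the glucagon receptor lay on the other side. Glp1r, the GLP-1 receptor gene, was at 1.41 to 6.41 in members and 376 to 404 in beta cells. Gcgr, the glucagon receptor gene, was at most 1.08 and 27.1 to 34.5. The GIP receptor gene Gipr was at 15.7 to 27.4 in members against 56.4 to 75.6.

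Amino acid transporter genes were mostly higher, 7 of 13 tested, with 4 lower. Slc38a5, a glutamine transporter gene, was at 372, 328 and 355 CPM with chow and 389.9 and 421 with HC in members and at 3.94 to 9.66 in beta cells (log2 5.97 ± 0.150, adjusted p = 1.41e-10, edgeR). Slc7a2, whose product carries arginine and lysine, was at 323 to 525 against 158 to 230.3 (1.13 ± 0.0587, adjusted p = 1.13e-24). Slc38a4, another neutral amino acid transporter gene, was higher by a smaller amount (0.40 ± 0.0620, adjusted p = 9.97e-08).

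Several housekeeping lists differed as a whole. All 53 tested ribosomal and translation genes were higher in members, with a median log2 of 0.96, and Rpl13 was at 6880.4 to 7346 against 2781 to 3023 CPM. All 13 mitochondrially encoded genes were lower (median -0.66), such as mt-Cytb, the cytochrome b gene (-0.97 ± 0.0568, adjusted p = 2.08e-22, edgeR). Of 30 endoplasmic reticulum folding genes 27 were lower and 1 higher (median -0.97), among them the chaperone gene Hspa5 (-0.44 ± 0.0603, adjusted p = 3.69e-08). Of 25 cholesterol and fatty acid synthesis genes 20 were lower, with Msmo1, a sterol oxidase gene, at -2.40 ± 0.107, adjusted p = 7.48e-28. Of 18 glycolysis genes 12 were lower and 2 higher, and the pyruvate kinase gene Pkm was among the lower ones (-0.97 ± 0.0563, adjusted p = 1.75e-22). These levels are relative to the RNA outside the hormone genes, so amounts per cell cannot be read from them.

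Lists of stress-related genes did not share a direction against beta cells. Of 28 tested p53 target and senescence genes 21 were higher and 1 lower (median log2 0.77). Of 27 immediate-early genes 20 were higher and 3 lower (median 0.71). Of 16 heat shock genes 8 were higher and 4 lower (median 0.14). Of 23 genes of the ATF4 amino acid response 4 were higher and 14 lower (median -0.46), and the folding genes given above were mostly lower. Phlda3, a p53 target that restrains AKT signalling, was at 60.6, 54.8 and 52.3 CPM with chow and 28.6 and 25.8 with HC in members, against 7.55 to 16.7 in beta cells (log2 1.88 ± 0.126, adjusted p = 1.47e-18, edgeR). Fas, the death receptor gene, was at 4.95 to 10.5 in members and 0 to 1.15 in beta cells.

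Alpha cells with less glucagon RNA differed from the members in many other genes. The low-glucagon class held 597 cells with 10% to under 30% Gcg and the same limits on other hormones, 87, 145 and 102 with chow and 139 and 124 with HC. Their median UMIs outside the hormone genes were 2047, 1775 and 1636.5 with chow and 1814 and 1941.5 with HC, below the members of the same mouse in each case. With the mouse as a block and the hormone genes left out, 230 of 9692 tested genes (2.37%) were higher in members and 246 (2.54%) lower, 476 in all (4.91%), by edgeR's quasi-likelihood test at an adjusted p under 0.05. DESeq2 called 60 higher and 155 lower.

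The low-glucagon class also held droplets with RNA of other cell types. Cells with at least 3 UMIs of core macrophage, endothelial, stromal or Schwann cell genes had shares among members of 0.455%, 1.84% and 1.78% with chow and 1.39% and 1.97% with HC. In the low-glucagon class they were 2.30%, 6.21% and 11.8% with chow and 3.60% and 20.97% with HC, so every mouse had more in the low class and HC mouse 2 the most. Of the macrophage markers 5 of 11 tested were lower in members, of the endothelial markers 7 of 8 and of the stromal markers 5 of 7. The summed macrophage list ran from 0.844 to 3.08 per 10000 non-hormone UMIs in members and from 1.35 to 78.4 in the low class. The endothelial list ran from 0.151 to 0.749 and from 0.736 to 7.35, and the stromal list from 0.465 to 1.12 and from 1.49 to 8.32. Without those cells, an alternative chosen after seeing the data, 210 genes were higher and 76 lower. Of the 230 genes higher with all cells 171 were called again, and of the 246 lower 51 were.

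Many granule and hormone-processing genes were higher in members than in the low class. Of 20 tested genes of that list 11 were higher in members and 0 lower, with a median log2 of 0.34 against 0.00 for all genes, and 10 were higher without the cells that carry other types' RNA. Scg2, the secretogranin II gene, was at 1078, 1043 and 1066 CPM with chow and 1114 and 1064 with HC in members. In low-glucagon cells of the same mice it was at 527, 677 and 512 with chow and 652 and 645 with HC. The classes did not overlap for Scg2 (log2 0.91 ± 0.0649, adjusted p = 2.01e-21, edgeR). Vgf, which encodes another granin-like peptide precursor, was at 116, 72.2 and 81.3 with chow and 68.5 and 72.8 with HC in members, against 17.9 to 34.1 in the low class (1.90 ± 0.207, adjusted p = 6.08e-12), also without overlap. The low-class sums of Vgf were small, with as few as 6 UMIs in a mouse. Chga (0.48 ± 0.0668, adjusted p = 0.00244) and Scg3 (0.53 ± 0.0613, adjusted p = 7.93e-11), both granin genes, rose as well. So did the carboxypeptidase gene Cpe (0.46 ± 0.0520, adjusted p = 2.19e-11) and Scg5 (0.45 ± 0.0438, adjusted p = 7.92e-13). Pcsk2 was at 5093, 4789 and 5229 with chow and 5281 and 4555 with HC in members and at 4389, 4273 and 4322 with chow and 5109 and 3470.1 with HC in the low class. The difference for Pcsk2 was small but of the same direction in all 5 mice (0.30 ± 0.0426, adjusted p = 7.88e-08). The other genes of the list that rose were Atp6ap2, Ptprn, Pam and Ctsl.

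The window upstream of Scg2 lies at chr1:79440027-79440276 on the minus strand (RefSeq, GRCm38.p6). It is shown because the members hold more of this granin RNA in every mouse and because it holds the motif marked. Capitals mark the full cAMP response element, TGACGTCA, searched on both strands, which occurs 1 time here and in 1.55% of the windows of the table. By gene it was found in 3.39% of the 7672 tested with a window, 5.65% of 177 higher in members and 2.63% of 190 lower.
Scg2 upstream: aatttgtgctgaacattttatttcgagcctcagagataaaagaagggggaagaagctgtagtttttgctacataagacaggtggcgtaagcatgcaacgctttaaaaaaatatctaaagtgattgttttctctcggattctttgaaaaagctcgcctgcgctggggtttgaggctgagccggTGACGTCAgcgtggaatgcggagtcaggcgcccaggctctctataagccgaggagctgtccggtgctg

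**Figure D2:**
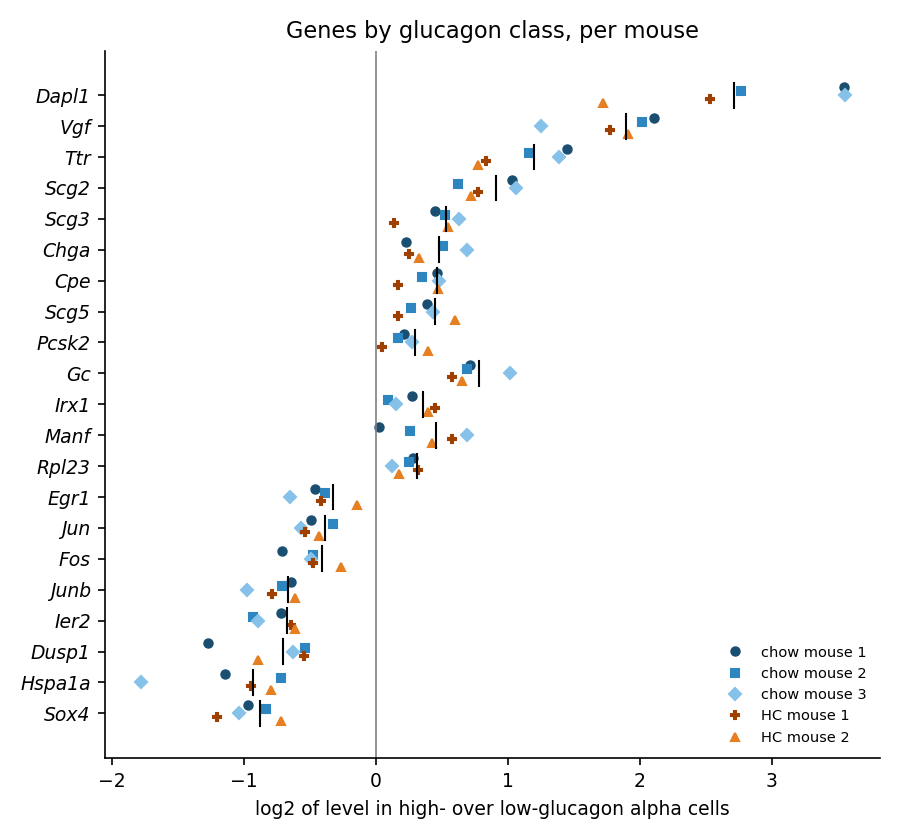
Level in high- over low-glucagon alpha cells on a log2 scale (horizontal axis), from CPM, with 1 point per mouse and the edgeR estimate as a bar. Scg2 and Vgf lie right of 0 and Junb left of 0 in all 5 mice.

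The largest rises by fold lay mostly outside the granule list. Dapl1, a death-associated protein-like gene, was at 315, 365 and 343 CPM with chow and 212 and 266 with HC in members. It was at 27.03, 53.7 and 29.2 with chow and 36.8 and 80.6 with HC in the low class (log2 2.72 ± 0.187, adjusted p = 3.24e-08, edgeR). Members were above low-glucagon cells in every mouse, without overlap. Crem, a cAMP-responsive transcription factor gene, was at 52.2 to 85.5 against 18.02 to 34.1 (1.41 ± 0.211, adjusted p = 2.46e-07), and Agt, the angiotensinogen gene, at 62.4 to 112 against 29.02 to 63.3 (1.21 ± 0.182, adjusted p = 3.09e-07). Slc6a17, Lrrn1, Hapln1, Pla2g12a and 2510046G10Rik also rose, by log2 values from 0.93 to 1.19. Many of these rises rest on few UMIs in the low class. Its lowest sum in a mouse was 3 for Slc6a17, Lrrn1 and 2510046G10Rik, 4 for Crem, 6 for Dapl1 and Hapln1, 8 for Agt and 18 for Pla2g12a.

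Alpha identity factors moved little. Of 20 tested transcription factors 2 were higher in members, Irx1 (log2 0.36 ± 0.101, adjusted p = 0.0178, edgeR) and Etv1 (0.40 ± 0.0767, adjusted p = 9.14e-05), and 0 were lower. Irx2 did not pass (0.25 ± 0.107, adjusted p = 0.216). Among other alpha markers Gc, the vitamin D binding protein gene, rose (0.78 ± 0.100, adjusted p = 2.34e-09), as did Higd1a (0.54 ± 0.0871, adjusted p = 1.52e-06), while Dpp4, a peptidase gene, fell (-1.04 ± 0.234, adjusted p = 0.00115). The amino acid transporter gene Slc38a4 rose (0.68 ± 0.117, adjusted p = 8.9e-06), the 1 of 11 tested transporters to pass. Of 17 receptor genes Avpr1b (0.82 ± 0.250, adjusted p = 0.0338) and the glutamate receptor gene Gria2 (0.39 ± 0.0878, adjusted p = 0.00112) rose, and the fatty acid receptor gene Ffar1 fell (-0.91 ± 0.243, adjusted p = 0.00916). In the low class of a mouse Avpr1b had as few as 3 UMIs and Ffar1 as few as 4.

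Genes of protein synthesis were slightly higher in members. Of 53 ribosomal and translation genes 38 passed upward and 0 downward, with a median log2 of 0.20. By the plain levels 29 of them were higher in all 5 mice, where 4.72% of all tested genes were, and DESeq2 called 10 of the 53. Rpl23, a large-subunit protein gene, was at 3117, 3812 and 3865 CPM with chow and 3173 and 3566 with HC in members and at 2568, 3199 and 3562 with chow and 2546 and 3160.4 with HC in the low class (log2 0.31 ± 0.0448, adjusted p = 1.27e-07, edgeR). Of 29 folding genes 4 rose, which were Manf, Sec61b, Hspa5 and Hsp90b1. Of 70 nuclear genes of the respiratory chain 9 rose, Ndufa6 among them, where DESeq2 called 1, while 0 of 13 mitochondrially encoded genes passed.

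Immediate-early genes, which are transcribed soon after many stimuli, were lower in members. Of 24 tested, 13 were lower and 0 higher, with a median log2 of -0.41. By the plain levels 15 were lower in all 5 mice, where 7.26% of all tested genes were. Without the cells carrying other types' RNA 11 of 24 were lower and 0 higher. Junb, an AP-1 subunit gene, was at 756, 612 and 609.8 CPM with chow and 582 and 467 with HC in members. It was at 1185, 1003 and 1199 with chow and 1007 and 716 with HC in the low class (log2 -0.67 ± 0.0623, adjusted p = 4.14e-15, edgeR). Within each mouse the low class was above the members. Fos, another AP-1 subunit gene, was at 1154, 1284 and 856 with chow and 953 and 1034 with HC in members and at 1892, 1790.5 and 1204 with chow and 1332 and 1245 with HC in the low class (-0.41 ± 0.0551, adjusted p = 1.46e-08), again lower in members within each mouse. Ier2 (-0.68 ± 0.0804, adjusted p = 1.38e-10), Dusp1 (-0.70 ± 0.104, adjusted p = 2.1e-07), Jun (-0.39 ± 0.0560, adjusted p = 9.15e-08) and Egr1 (-0.33 ± 0.0722, adjusted p = 0.00093) were lower too. The summed mitochondrially encoded genes, per 10000 non-hormone UMIs, were at 446, 361 and 450.4 with chow and 624 and 473 with HC in members and at 474, 385 and 479 with chow and 637 and 498 with HC in the low class, a little lower in members of each mouse, and their part in the result was not tested. Of 16 heat shock genes Hspa1a, Hspa1b and Hspb1 were lower, but Hspb1 had a log2 of 0.0102 without the cells carrying other types' RNA.

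Other genes lower in members changed unequally when the cells with other types' RNA were left out. Ifitm3, an interferon-inducible gene, was at 3.79, 18.1 and 16.96 CPM with chow and 15.99 and 17.2 with HC in members and at 31.5, 68.6 and 166 with chow and 53.5 and 277 with HC in the low class (log2 -2.85 ± 0.374, adjusted p = 0.00301, edgeR). Without those cells its log2 was -1.38 and the call was lost (adjusted p = 0.113), as it was with the low class from 20% (0.27), without chow mouse 1 (0.0945) and without chow mouse 3 (0.0922). Bst2 went from -1.19 with all cells to 0.12 without those cells, and Pmepa1 from -1.03 to 0.21. The interferon and MHC class I list had 2 of 21 genes lower and a median of -0.49 with all cells, and 0 of 19 lower, 1 higher and a median of 0.06 without them. Sox4, a developmental transcription factor gene, was at 82.8, 153 and 133 with chow and 153 and 127 with HC in members and 162, 272 and 273 with chow and 351 and 209.6 with HC in the low class (-0.88 ± 0.103, adjusted p = 8.13e-11), and without those cells its log2 was -0.98 (adjusted p = 1.17e-16). Cd9, a tetraspanin gene (-0.95 ± 0.148, adjusted p = 7.46e-07), and Dbi (-1.09 ± 0.142, adjusted p = 3.24e-08), which encodes the acyl-CoA binding protein, were lower as well. Dbi lost its call with the low class from 20% (adjusted p = 0.196) and after thinning to 1000 non-hormone UMIs (0.139). In the exocytosis list Cadps and Cplx2 fell and 0 of 17 rose. In the lipid synthesis list Acly was among 2 genes that fell and 0 of 22 rose.

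Ttr, the transthyretin gene and a marker of alpha cells, was higher in members than in the low class. In members its UMIs per 10000 non-hormone UMIs were 413, 317 and 377 with chow and 288 and 280.3 with HC. In the low class it was at 151, 142 and 144 with chow and 162 and 164 with HC, and in beta cells at 15.5 to 18.2. Members were above low-glucagon cells in all 5 mice (log2 1.20 ± 0.152, adjusted p = 0.0268, edgeR), though the call was lost in 8 of 14 alternatives, with adjusted p up to 0.125 and a log2 between 1.09 and 1.32. Among the members themselves Ttr was at 264, 189.8 and 179.9 with chow and 150.04 and 158 with HC in cells with 30% to under 35% Gcg. It was at 499, 472 and 506 with chow and 449 and 375 with HC in cells with 50% to under 55%. In these sums the rise did not run through both ends. In both HC mice the summed low class lay above the members with 30% to under 35%. From 50% to under 55% to 55% and over the summed Ttr was lower in every mouse but chow mouse 2. By the median cell the low class lay below the members with 30% to under 35%. The medians were 83.7 against 95.1 in HC mouse 1 and 95.1 against 99.5 in HC mouse 2. At the upper end the median cell also rose in chow mouse 1, from 385 to 444. Across single members the Spearman correlation of the Gcg share with Ttr per non-hormone UMI was 0.375, 0.416 and 0.479 with chow and 0.460 and 0.389 with HC (n = 660, 708, 675, 1150 and 916 cells), a description, since all cells of a mouse share 1 library. The same correlation for Pcsk2 was between 0.0777 and 0.180.

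**Figure D3:**
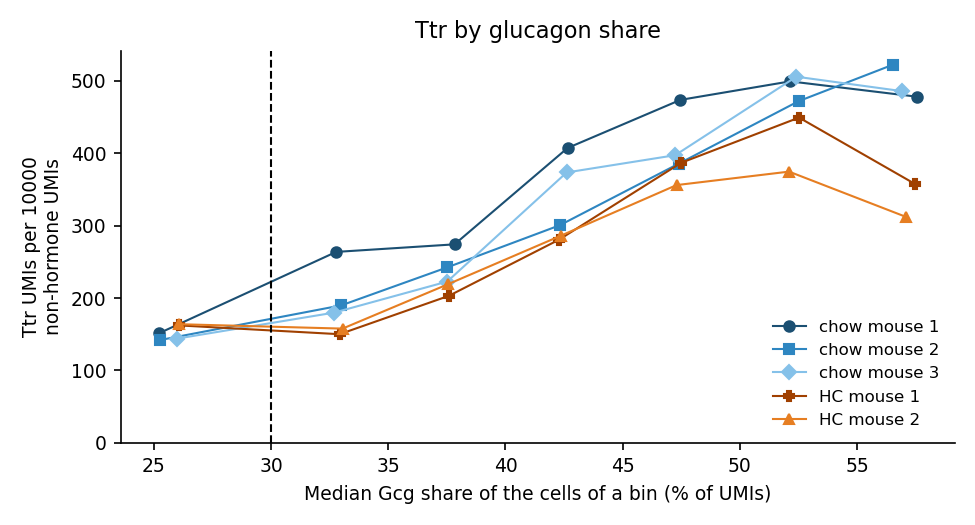
Ttr UMIs per 10000 non-hormone UMIs (vertical axis), summed over the cells of a bin, against the median Gcg share of the bin in percent of UMIs (horizontal axis), for the low-glucagon class and 6 bins of members. Each line is 1 mouse and the dashed line marks 30%. At 55% Gcg and over the HC mice stand at 358 and 312, below the chow mice at 478, 523 and 486.

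The rise of Ttr from low- to high-glucagon cells was smaller in HC mice. The log2 of members over low-glucagon cells was 1.45, 1.16 and 1.39 with chow and 0.83 and 0.77 with HC, with no overlap. The difference between diets was -0.59 ± 0.0792, adjusted p = 6.42e-06 (edgeR's quasi-likelihood test of the class by diet term). It was 1 of 2 genes past the threshold among 9692 (0.0206%). The call was lost under DESeq2 (adjusted p = 0.122), with the stricter cell filter (0.515), with the grouping by title (1) and without cells carrying other types' RNA (1, log2 -0.72), while the direction stayed. At 40% to under 45% Gcg the level was 407, 300.5 and 373 with chow and 281 and 286 with HC, with both HC mice below all chow mice. At 45% to under 50% it was 474, 386 and 397 with chow and 387 and 356 with HC, where the groups overlapped.

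Few genes of the members differed by diet. Of 10508 tested genes 0 were higher in HC mice and 3 (0.0285%) were lower by edgeR's quasi-likelihood test, while 758 had an unadjusted p under 0.05. DESeq2 called 2 of these 3 genes and no other. The 3 genes were Cdkn1a, Phlda3 and Ly6e.

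Cdkn1a, which encodes the cell cycle inhibitor p21 and is the classical p53 target, was at 176, 159 and 136 CPM with chow and 70.4 and 66.9 with HC. Both HC mice were far below all chow mice (log2 -1.25 ± 0.136, adjusted p = 0.00184, edgeR), with -1.32 within FUN and -1.14 within SKY. Phlda3 was at 60.6, 54.8 and 52.3 with chow and 28.6 and 25.8 with HC (-1.09 ± 0.164, adjusted p = 0.0293), with -1.09 within FUN and -1.05 within SKY. Ly6e, an interferon-inducible membrane protein gene, was at 539.9, 504 and 466 with chow and 302 and 294 with HC (-0.81 ± 0.116, adjusted p = 0.026), with -0.84 within FUN and -0.72 within SKY. The groups did not overlap for any of the 3 genes. Without chow mouse 1 none of the 3 passed, with adjusted p of 0.0965 for Cdkn1a, 0.411 for Phlda3 and 0.411 for Ly6e, at log2 values of -1.19, -1.06 and -0.78. Leaving out any single mouse cost Phlda3 and Ly6e their calls, with adjusted p from 0.0571 to 0.411, while Cdkn1a kept its call without each of the other 4 mice. With HC mouse 2 counted as chow, as its title has it, 12 other genes passed and these 3 did not.

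**Figure D4:**
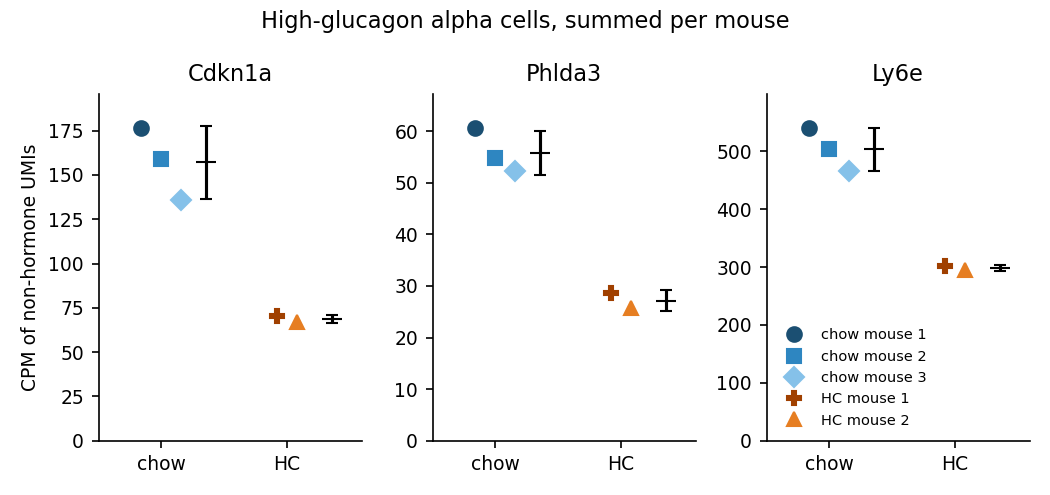
Levels in high-glucagon alpha cells in CPM (vertical axes, from 0), 1 point per mouse, with the mean and SD of each diet group in black. For Cdkn1a, Phlda3 and Ly6e the HC mice lie below all chow mice.

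The bases upstream of Cdkn1a, at chr17:29090729-29090978 on the plus strand (RefSeq, GRCm38.p6, 1 of 2 windows the table has for this gene), are shown because this gene had the firmest diet difference. Only windows of the gene that hold a match to the p53 half-site consensus were considered for display, so a match was fixed in advance. Capitals mark the 2 matches to this consensus, searched on both strands, which 7.13% of the windows of the table hold.
Cdkn1a upstream: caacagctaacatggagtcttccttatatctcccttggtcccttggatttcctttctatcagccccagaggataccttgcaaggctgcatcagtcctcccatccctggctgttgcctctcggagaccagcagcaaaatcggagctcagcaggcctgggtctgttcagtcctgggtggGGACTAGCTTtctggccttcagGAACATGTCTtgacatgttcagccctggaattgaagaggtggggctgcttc

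Most other p53 targets had values below 0 without passing. Of 26 tested genes of that list 2 were lower, 0 higher and 3 had a log2 above 0, against 50.6% of all tested genes. The list's median was -0.36 against 0.00 for all genes, with -0.37 within FUN and -0.25 within SKY, and from -0.39 to -0.26 when 1 mouse was left out. In 9 of the 26 both HC mice lay below all chow mice and in 2 above, where 7.32% and 16.3% of all tested genes did. Serpine2, a protease inhibitor gene, was at 53.02, 55.3 and 50.9 CPM with chow and 31.99 and 29.8 with HC, without overlap (log2 -0.83 ± 0.161, adjusted p = 0.168, edgeR). Bax, a pro-apoptotic gene, was at 359, 327 and 298 with chow and 280.3 and 265 with HC (-0.32 ± 0.116, adjusted p = 0.657), also without overlap. Ccng1 (-0.32 ± 0.150, adjusted p = 0.688), Zmat3 (-0.39 ± 0.184, adjusted p = 0.688) and Eda2r (-0.53 ± 0.465, adjusted p = 0.836) had values below 0. The noncoding RNA gene Lncpint, also in the list, lay on the other side (0.91 ± 0.209, adjusted p = 0.317).

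Further genes with small p did not pass either. Spc25, a kinetochore gene, was at 119, 135 and 112 CPM with chow and 74.3 and 75.03 with HC, without overlap (log2 -0.77 ± 0.134, adjusted p = 0.114, edgeR), and the stress gene Gadd45g had -0.85 ± 0.157, adjusted p = 0.163. On the other side were 2310001H17Rik (1.01 ± 0.205, adjusted p = 0.214), the sphingomyelin synthase gene Sgms1 (0.80 ± 0.164, adjusted p = 0.214), the sialyltransferase gene St6gal1 (0.86 ± 0.183, adjusted p = 0.245) and Pou5f2 (1.46 ± 0.328, adjusted p = 0.28).

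Glucagon pathway genes did not pass for diet. Of 20 tested granule and processing genes 0 passed, with a median log2 of -0.11 and 4 above 0. Over all tested genes 50.6% were above 0, and in 7.32% both HC mice lay below all chow mice. Chga was at 11156, 11375 and 10471 CPM with chow and 8923 and 6016 with HC, without overlap but with the HC mice far apart (log2 -0.61 ± 0.155, adjusted p = 0.435, edgeR). Chgb was at 1031, 1006 and 871 with chow and 737 and 755 with HC (-0.43 ± 0.120, adjusted p = 0.501). Ttr over all members had -0.43 ± 0.132, adjusted p = 0.594. Of 20 transcription factors 0 passed, with a median of 0.12.

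No gene of the nutrient and energy lists passed for diet, and the medians lay on both sides of 0. Amino acid transporters had a median log2 of 0.22, with 10 of 12 above 0. Slc7a2 was at 365, 323 and 452 CPM with chow and 525 and 472 with HC, without overlap (log2 0.34 ± 0.140, adjusted p = 0.676, edgeR). The ATF4 amino acid response list had a median of 0.31 (15 of 18 above 0), but 0.04 within SKY, and -0.05 to 0.40 when 1 mouse was left out. Atf4 itself, the transcription factor of that response, was at 215, 199 and 272 with chow and 316 and 308 with HC (0.39 ± 0.135, adjusted p = 0.657), without overlap. Glycolysis genes had a median of -0.03, with 8 of 17 above 0, and nuclear genes of the respiratory chain one of -0.11, with 11 of 70 above 0. Receptors had a median of 0.30, with 14 of 19 above 0. Mitochondrially encoded genes had 0.37, with 12 of 13 above 0, beside the higher mitochondrial share of HC cells given above. Tubulin genes had a median of -0.54, with 2 of 11 above 0, and Tubb4b was at 288, 198 and 218 with chow and 142 and 149 with HC (-0.75 ± 0.143, adjusted p = 0.168).

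Markers of other cell types were measured in the same sums, and their part in the diet results was not tested. The summed macrophage list gave 0.844, 2.02 and 1.38 with chow and 2.06 and 3.08 with HC in UMIs per 10000 non-hormone UMIs, with 0 of 7 tested genes passing and a median log2 of 1.08. Beta cell markers had a median of -0.54 with 0 of 7 passing. Acinar markers had a median of -0.37, with -0.997 within FUN and 0.50 within SKY. Without the cells carrying other types' RNA Cdkn1a, Phlda3 and Ly6e were again the 3 genes that passed for diet.

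C1qa, a complement gene on the macrophage list, was seen in the members of all 5 mice. It encodes the A chain of C1q and gave 152, 145 and 113 UMIs with chow and 322 and 235 with HC in members, or 82.2, 84.5 and 79.9 CPM with chow and 123 and 106 with HC. In chow mouse 1 the partner chain genes C1qb and C1qc, and Lyz2, Cd74, Tyrobp, Ctss and Csf1r, gave 0 UMIs in the same 660 cells, which allows up to 1.62 CPM each. In the members of the other mice Cd74, an MHC class II chaperone gene, was at 71.1 and 44.5 CPM with chow and 54.5 and 114 with HC. In members of HC mouse 2 it gave 252 UMIs, a count above the 235 of C1qa. The other 6 of these genes reached at most 30.3 CPM, for Lyz2 in HC mouse 2. In members of chow mouse 1 Cd68, Fcer1g and Ptprc, also on the macrophage list, gave 2, 1 and 1 UMIs. Apoe, which is not on that list, gave 261 UMIs there, more than C1qa. C1qa was higher in low-glucagon alpha cells than in members of every mouse, at 135, 158 and 190.03 with chow and 201 and 355 with HC (log2 of members over low-glucagon cells -1.03 ± 0.130, adjusted p = 3.09e-07). That call was lost with the stricter cell filter (adjusted p = 0.155) and without cells carrying other types' RNA (0.0846, log2 -0.41). C1qa was lower in beta cells, at 32.2 to 59.9 CPM (log2 of members over beta cells 1.18 ± 0.140, adjusted p = 3.6e-05, edgeR), and higher in delta cells, at 271 to 416. A C1qa UMI was seen in 14.5% to 22.96% of members, 5.11% to 14.4% of beta cells and 36.5% to 47.4% of delta cells. After thinning to 1000 non-hormone UMIs these were 7.09% to 11.8%, 2.10% to 4.87% and 20.7% to 30.2%. C1qa lies on the minus strand at chr4:136895917-136898803 (GRCm38).

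**Figure D5:**
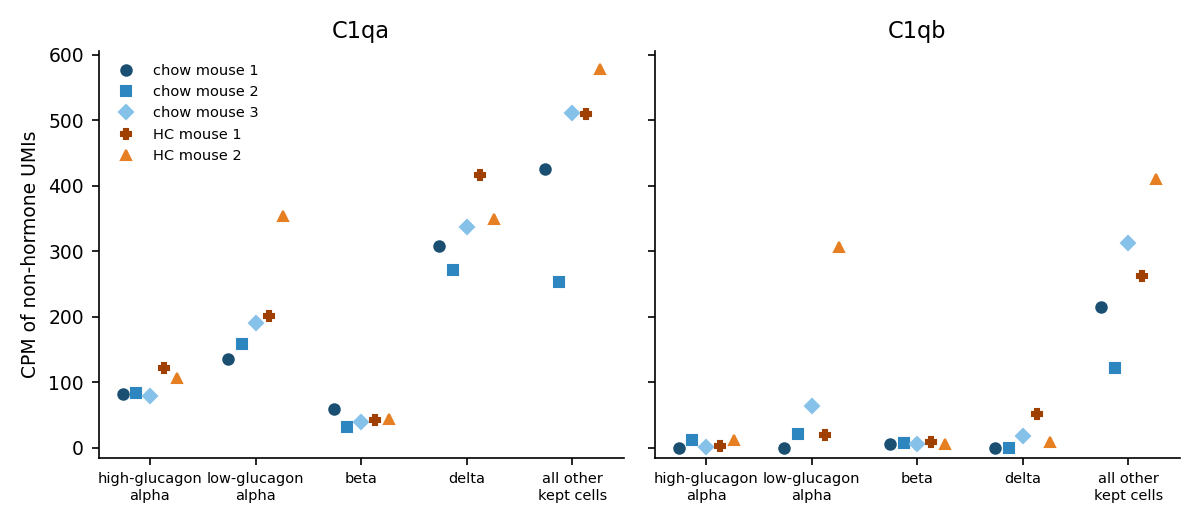
Levels of C1qa and C1qb in CPM (vertical axes) by cell class (horizontal axes), 1 point per mouse. C1qa lies at 79.9 to 123 in high-glucagon alpha cells and 271 to 416 in delta cells, where C1qb lies at 0 to 12.2 and 0 to 52.5.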

How the data were processed

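Droplet (10x Genomics) libraries of islets from 5 mice were measured, 1 library per mouse. The authors deposited raw UMI counts per gene and barcode, made with Cell Ranger 4.0.0 on build mm10, per the submitters' processing notes. The files hold 32285 genes, and the lowest barcode has 500 or 501 UMIs. Barcodes with at least 1000 UMIs, at least 500 genes and at most 15% mitochondrial UMIs were kept (22758 cells, median 5147 to 6958.5 UMIs). No doublet caller was run. Mixed droplets were limited only by the rule's limits on other hormones. The members and the gene lists were chosen with earlier results of these data known.

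Counts were summed per mouse and class, giving 2686515 to 4705998 UMIs of members per mouse, and tested across mice with edgeR 4.0.16 (R 4.3.3; TMM, filterByExpr, robust quasi-likelihood fit, two-sided, Benjamini-Hochberg over all genes tested, threshold 0.05). Class comparisons had the mouse as a block and left the 5 hormone genes out of counts and library sizes, since the rule reads them. The diet test kept these genes in counts and library sizes, unlike the CPM printed beside its log2 values. With the hormone genes left out, the same 3 genes passed for diet. The SE printed after an edgeR log2 value is the size of that value divided by the square root of its F statistic. It thus adds no measure of spread beyond the test. Shares and depths were compared by exact permutation over 10 splits of the mice. Whether the mice of a group were littermates is not given in the sources used here. No pair of libraries agreed within sampling noise (chi-square per degree of freedom 2.43 to 7.32). Python 3.11.15, numpy 2.4.6, scipy 1.17.1 and pandas 2.3.3 were used. DESeq2 1.42.0, other filters, thinning, grouping by title, age or library prefix as a term, and leaving out each mouse were the alternatives. Leaving out cells with at least 3 UMIs of core genes of another type was added after seeing the data.

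The edgeR fits were tested on simulated data with 2-fold and 4-fold changes. The shares recovered for diet were 62% (2-fold) and 93% (4-fold), with 12 of 167 calls false (10483 genes). This simulated diet fit left out the 5 hormone genes, which the diet test itself kept. For high against low glucagon the shares were 54% (2-fold) and 87% (4-fold), with 9 of 150 calls false (9692 genes). Against beta cells they were 82% (2-fold) and 95% (4-fold), with 12 of 189 calls false (12568 genes). For the class by diet term they were 9% (2-fold) and 56% (4-fold), with 2 of 67 calls false (9692 genes). Genes were named by rule: the 10 of largest change per direction (for diet also the 5 of smallest p), a fixed set of alpha cell genes, and 2 to 4 genes of smallest p of each list. Other list members named were chosen after their values were seen. Some genes are not reported here. Levels are CPM over UMIs outside the hormone genes and compare a gene between classes, not genes with each other. Intervals for counting error are not given, since the mouse is the replicate.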

Additional observations from a re-analysis of the deposited data

Results flagged for a closer look

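For 2 genes the diet effect differed between high- and low-glucagon alpha cells by the test of the class by diet term (edgeR's quasi-likelihood test). Ttr had a class by diet value of -0.59 on the log2 scale (adjusted p = 6.42e-06), with its levels given above. Try5, a trypsinogen gene of acinar cells, had 2.77 ± 0.359 (adjusted p = 1.52e-05). Its log2 of high- over low-glucagon cells was -2.83, -0.72 and -2.71 with chow and -0.03 and 0.36 with HC, so the low class held more of it in all chow mice. The summed acinar list ran from 2.04 to 11.8 per 10000 non-hormone UMIs in high-glucagon cells. In low-glucagon cells it was at 100.1, 1.67 and 25.7 with chow and 4.52 and 3.87 with HC, with chow mice 1 and 3 the highest, and its part in the result was not tested. Under DESeq2 neither gene passed, with adjusted p of 0.122 for Ttr and 0.122 for Try5.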

How the results depend on the processing

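The diet count of 3 genes became 5 with age as a term, and only 2 of the 3 were among them. It became 6 with the library prefix as a term, all 3 among them, 12 with the grouping by title and 44 with no filter on low counts. It ran from 0 to 4 when each mouse was left out, the lowest lacking chow mouse 1 (there 504 genes had an unadjusted p under 0.05), and was 1 if HC mouse 1 was dropped. Other alternatives gave 2 to 4. The count of 476 genes between high- and low-glucagon cells became 215 under DESeq2, 311 with the low class from 20% Gcg, 732 with no filter, 226 and 290 after thinning to 1000 non-hormone or 3000 UMIs, and 286 without cells with RNA of another type, and 354 to 423 when each mouse was left out. Genes higher in members were 48.3% of the calls, against 27.9% under DESeq2, 60.5% with the low class from 20%, 63.3% after thinning to 1000, 60.8% without HC mouse 2 and 73.4% without cells with RNA of another type. The class by diet count of 2 became 0 under DESeq2 (56 at an unadjusted p under 0.05), 1 by title, 7 with the low class from 20%, 9 with no filter, 4 with the stricter cell filter and 6 without cells with RNA of another type, and 2 to 40 when each mouse was left out, with HC mouse 1 (40) or 2 (6) or chow mouse 2 (25) or 3 (17) as the one dropped. The cause was not tested for any of these. The count against beta cells stayed within 1.5 times in the alternatives run.

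Small differences by diet changed sign. Median genes per member differed by -42 (HC minus chow), by 17 under the stricter filter and by -109.5 to 40.5 when each mouse was left out (25.5 without HC mouse 1, 40.5 without chow mouse 1). Median non-hormone UMIs differed by -170.4, and by -302.5 to 10 when each mouse was left out (10 without chow mouse 1). The share of glucagon cells that were members differed by 2.57 points, and by -0.439 under the stricter filter. Bst2, Hspb1 and Pmepa1 changed sign between the glucagon classes, to 0.12, 0.0102 and 0.21, without cells with RNA of another type. Of the values of named genes under alternatives, 17 of 367 for diet, 118 of 826 for the glucagon classes, 7 of 484 against beta cells and 8 of 26 for class by diet lost their call. No paired analysis was possible because the diet groups hold different mice whose numbers were given here in accession order. With 3 and 2 mice per diet and 87 to 145 low-glucagon cells per mouse, small changes of low genes were not detectable at this depth.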

Other observations

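Genes of electrical activity set the high-glucagon cells apart from beta cells in both directions, with 7 of 20 tested higher and 8 lower by edgeR's quasi-likelihood test, where 29.6% and 29.8% of all genes were. Kcnk3, which encodes the acid-sensitive potassium channel TASK-1, was at 81.2 to 126 CPM in members and 0.984 to 3.05 in beta cells (log2 5.82 ± 0.135, adjusted p = 3.2e-38). For diet 15 of 19 genes of this list had a log2 above 0 and 0 passed, where 50.6% of all tested genes were above 0. Abcc8, the sulfonylurea receptor gene, was at 299, 315 and 363 with chow and 443 and 420.3 with HC (0.35 ± 0.123, adjusted p = 0.657), and the potassium channel gene Kcnk16 at 191, 178 and 188 with chow and 251 and 234 with HC (0.33 ± 0.111, adjusted p = 0.654). Exocytosis genes had 14 of 17 above 0, with a median of 0.16 and 0 past the threshold.

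Interferon and MHC class I genes were higher than in beta cells for 12 of 26 tested and lower for 4. Of 7 delta cell markers 5 and of 5 PP cell markers 4 were higher in members than in beta cells, Pyy in both lists, and 0 were lower. Mki67, a proliferation marker, had a UMI in 0 to 1.21% of the members of a mouse, and Top2a in 0.141 to 1.36%.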
